A study of Mus musculus with 6 samples.

Results

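Collagen, laminin and nidogen genes, whose proteins build fibrils and basement membranes outside cells, were followed in RNA of sorted mouse outer hair cells. The members were all gene symbols of the deposited count files that name a collagen chain (Col, a type number and a chain number), a laminin alpha, beta or gamma chain, or a nidogen. There were 56 of them among 23337 genes, made up of 43 collagens, 11 laminins and 2 nidogens. The type XXVI collagen gene is listed under its older name, Emid2, and so fell outside this rule.

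Collagens are trimers wound around a repeated glycine. Types I, II, III, V and XI form fibrils, types IX and XII attach to fibrils, and type IV forms the sheet of the basement membrane together with laminins, nidogens and perlecan. Laminins are crosses of 1 alpha, 1 beta and 1 gamma chain that bind integrins and dystroglycan on the cell surface. In the cochlea the sensory epithelium rests on a basement membrane, the tectorial membrane above it contains collagens of types II, IX and XI, and fibroblasts and cartilage around it are rich in fibrillar collagens. Hair cells are not known as a main source of fibrillar collagen.

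The 6 libraries came from the organ of Corti of mouse embryos at stage E18.5. The 3 control libraries are labelled Insm1-Het, heterozygous for the gene of the zinc-finger transcription factor Insm1, and the other 3 are labelled Insm1-KO. Cells of both genotypes were sorted by fluorescence for the Insm1-GFP-Cre allele, so the controls also carry an altered copy of Insm1, and no wild-type group was analysed here. The labels do not give the structure of the alleles, or the number of animals or litters behind a library. The spread behind each p-value is that between these 6 libraries, and part of it may be technical.

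Libraries held between 7705177 and 12427039 counts. All 19 hair cell markers in the files were counted in every library, with a summed level of 13610 to 14644 CPM (each count as a share of its library's total, scaled by TMM factors and multiplied up to the usual unit of CPM) in Het and 14057 to 17595 CPM in KO libraries. Insm1 itself was at 109.3, 116.2 and 69.2 CPM in Het and 78.7, 60.3 and 18.7 CPM in KO replicates 1, 2 and 3, so the genotypes overlapped. Which part of the gene the alleles lack is not stated, so this level is no full check of the labels. The 15 supporting cell markers summed to 1693 to 1904 CPM in Het and 2005 to 2537 CPM in KO, without overlap. The genes of this list differed in direction, but the larger changes were upward in KO, and the median log2 fold change of the 14 tested was 0.27. At an unadjusted p under 0.05 by edgeR, 4 of them were higher in KO, Lfng, Cntn1, Lgr5 and S100a1, and 0 were lower. Over all tested genes, 3.19% were higher at that level, and 0 of the list passed the adjusted threshold. Mean Prox1 was 453.5 CPM in Het and 600.4 CPM in KO, and mean S100a1 200.7 and 323.4 CPM. Mean Sox2 was 158.1 CPM in Het and 145.5 CPM in KO, and mean Fgfr3 264.4 and 237.5 CPM. In RNA from many cells, a smaller number of cells of a type and less RNA per cell cannot be told apart.

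Transcripts of the members were scarce. They took 0.0872%, 0.0889% and 0.151% of the counts in Het replicates 1, 2 and 3 and 0.108%, 0.0867% and 0.104% in KO replicates 1, 2 and 3. The mean share was 0.109% ± 0.0363 in Het and 0.0996% ± 0.0112 in KO libraries (SD, n = 3), and the genotypes overlapped. Fibrillar collagens made up 34.1% of the members' counts, type IV collagens 16.1%, laminin alpha chains 14.0%, laminin gamma chains 12.1% and fibril-associated collagens 10.9%.

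The members fell into 4 bands of abundance. At least 10 CPM in every library was reached by 8 members: Col2a1, Lamc1, Col4a2, Lama5, Col9a2, Col11a1, Col4a1 and Col9a3. A further 6, Lamb2, Col18a1, Col7a1, Lama2, Lama4 and Col9a1, stayed at or above 1 CPM in every library. Another 36 were counted somewhere but lay under 1 CPM in at least 1 library. The last 6, Col5a3, Col24a1, Col23a1, Col28a1, Col4a6 and Lamb3, had 0 counts in all libraries, where a count of 0 allows a level of up to 0.237 to 0.391 CPM depending on the library.

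Set against hair cell genes, most members lay below the lower quartile of the hair cell markers. On the scale of CPM per kb of exon, which corrects for gene length by the union of all exons, that quartile was 40.1, the highest member, Col2a1, was at 28.8, and 0 members reached it. With the length of the longest transcript instead, the quartile was 49.2 and Col2a1, at 52.1, was the 1 member above it. That choice of length moved the level of 7 tested members by over 1.5-fold, Col2a1 and Col11a1 (5.33 against 8.86 CPM per kb) among them. Low hair cell markers were closer. Slc26a5, the outer hair cell motor prestin, was at 11.6 CPM per kb, and 4 members lay above it: Col2a1 at 28.8, Col9a2 at 24.6, Col4a2 at 17.4 and Lamc1 at 14.7. The same 4 lay above it by longest transcript. Lama5, at 9.23 CPM per kb, also lay above Espn, an actin bundler of stereocilia, at 7.57, but not by longest transcript, where Espn was at 13.6. The lowest hair cell marker was Tmc1, a subunit of the mechanotransduction channel, at 2.06 CPM per kb, and 12 members lay above it, or 10 by longest transcript. Tmc1 is an unsteady mark, with 117, 5 and 31 counts in Het and 214, 165 and 288 in KO libraries. Its range was 0.468 to 9.53 CPM in Het and 21.5 to 32.0 CPM in KO, without overlap, as for 5.08% of all tested genes. The log2 fold change was 2.61 and did not pass (adjusted p = 0.92 by edgeR, Benjamini-Hochberg). The mean of Tmc1 used here thus joins unlike levels of the genotypes. Among all genes with a length, Col2a1 stood at percentile 92.7, Col9a2 at 91.2, Col4a2 at 87.1, Lamc1 at 84.9 and Lama5 at 78.3. This ranking includes genes with 0 counts in every library, which tie at percentile 16.2, so ranks among counted genes alone would be lower. A level alone does not tell which cells made the RNA, and the source of these transcripts was not tested.

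**Figure D1:**
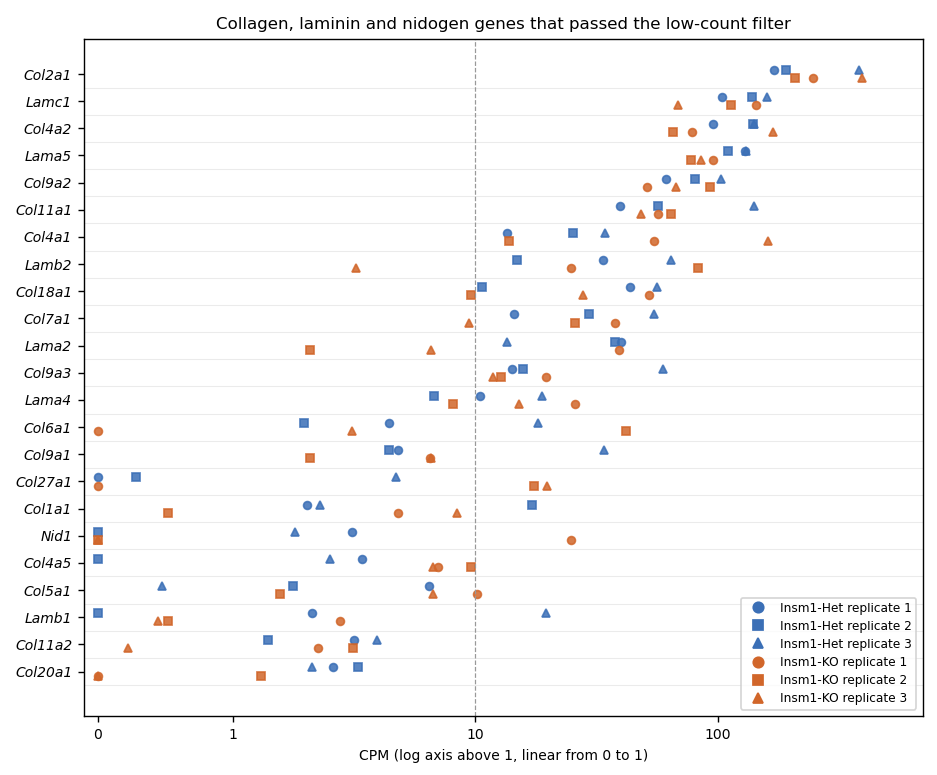
Level in CPM (x axis, logarithmic above 1 and linear from 0 to 1) of 23 of the 24 members that passed the filter on low counts, ordered by mean. Each symbol is 1 library, blue for Insm1-Het and orange for Insm1-KO, and the dashed line marks 10 CPM. The points of the top members lie close together, while those of several lower members spread from 0 to above 10 CPM.

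Col2a1, the chain of type II collagen found in cartilage and in the tectorial membrane (chromosome 15, 97975602 to 98004695 on GRCm38, minus strand), was the most abundant member. It was at 171.3, 191.6 and 383.7 CPM in Het replicates 1, 2 and 3 and at 248.6, 208.9 and 392.6 CPM in KO replicates 1, 2 and 3. Replicate 3 of each genotype was thus high, near the same level, and the genotypes overlapped. Its mean was 248.9 ± 117.2 in Het and 283.4 ± 96.7 CPM in KO (SD, n = 3). This gave a log2 fold change of 0.19 and 95% limits of -0.54 and 0.91. Its sign turned when a library was left out, to -0.02 without Het replicate 1 and -0.11 without KO replicate 3.

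The type XI partner of Col2a1 in mixed fibrils had a different order of libraries. Col11a1, a chain of type XI collagen that sets fibril width (chromosome 3, 114030540 to 114220718), was at 39.7, 56.7 and 141.4 CPM in Het and 56.8, 64.6 and 48.5 CPM in KO libraries. Het replicate 3 was above all others, and KO replicate 3 was not raised. Col11a2, another type XI chain, was low throughout, between 0.223 and 3.95 CPM. On the per-kb scale Col2a1 exceeded Col11a1 between 3.74-fold in Het replicate 3 and 11.2-fold in KO replicate 3.

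Type IX collagen, which coats type II fibrils, is a trimer of the products of Col9a1, Col9a2 and Col9a3, and its chains were counted unequally. Col9a2 (chromosome 4, 121039385 to 121055322) was at 61.2, 80.4 and 103.2 CPM in Het and 51.4, 92.7 and 67.5 CPM in KO libraries. Col9a3 was at 14.2, 15.7 and 59.8 CPM in Het and 19.6, 12.8 and 11.9 CPM in KO libraries. Col9a1 was at 4.805, 4.40 and 34.1 CPM in Het and 6.51, 2.09 and 6.57 CPM in KO libraries. All of them were highest in Het replicate 3, and Col9a2 led in every library. Per kb, Col9a2 was 4.96-fold to 72.8-fold above Col9a1 and 2.15-fold to 9.03-fold above Col9a3, with the smallest gap in Het replicate 3 for both. About 6.07% of the exon length of Col9a3 overlaps Tcfl5, and the strand setting of the counting is not given in the sources used here.

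The summed level of Col2a1, Col9a1, Col9a2, Col9a3, Col11a1 and Col11a2 was 294.2, 350.3 and 726.1 CPM in Het and 385.1, 384.2 and 527.4 CPM in KO replicates 1, 2 and 3. Markers of neighbouring cells were measured in the same libraries. The 19 markers of the greater epithelial ridge, the epithelium beside the hair cells that secretes the tectorial membrane, summed to 3118, 3623 and 4232 CPM in Het and 3501, 3278 and 4269 CPM in KO libraries. This sum was also highest in replicate 3 of each genotype, but its genes differed. Of the 19, 5 were highest in replicate 3 of both genotypes, Tecta, Tectb, Otog, Crabp1 and Epyc, 5 in that of Het alone, 5 in that of KO alone and 4 in neither. Tecta, the tectorin alpha of the tectorial membrane, was at 286.0, 347.9 and 980.4 CPM in Het and 412.7, 417.1 and 846.2 CPM in KO libraries, high in the same libraries as Col2a1. Tectb, tectorin beta, averaged 935.2 ± 209.8 in Het against 995.8 ± 251.8 CPM in KO (SD, n = 3), and was highest in replicate 3 of each. Dpysl2, the most abundant gene of that list, was at 1340.2, 1590 and 1128 CPM in Het against 1516, 1204 and 989.8 CPM in KO, lowest in replicate 3 of both. Epyc, a small proteoglycan of the ridge, was at 94.0 CPM in Het replicate 3 and between 0 and 7.33 CPM elsewhere, with 40.6% of its exon length shared with Gm10754. Their part in the collagen levels was not tested.

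Markers of cartilage cells were scarce. Of the 10 chondrocyte markers in the files, Acan, Matn3 and Ucma had 0 counts everywhere, and Matn1 had 19 counts in Het replicate 3 and 6 in KO replicate 1 against 0 in the other libraries. Only Sox9 was counted in all 6 libraries, at a mean of 130.2 CPM, and Sox9 is also known from supporting cells. Lect1, a cartilage glycoprotein, had 65, 5 and 181 counts in the Het and 4, 0 and 7 in the KO libraries.

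**Figure D2:**
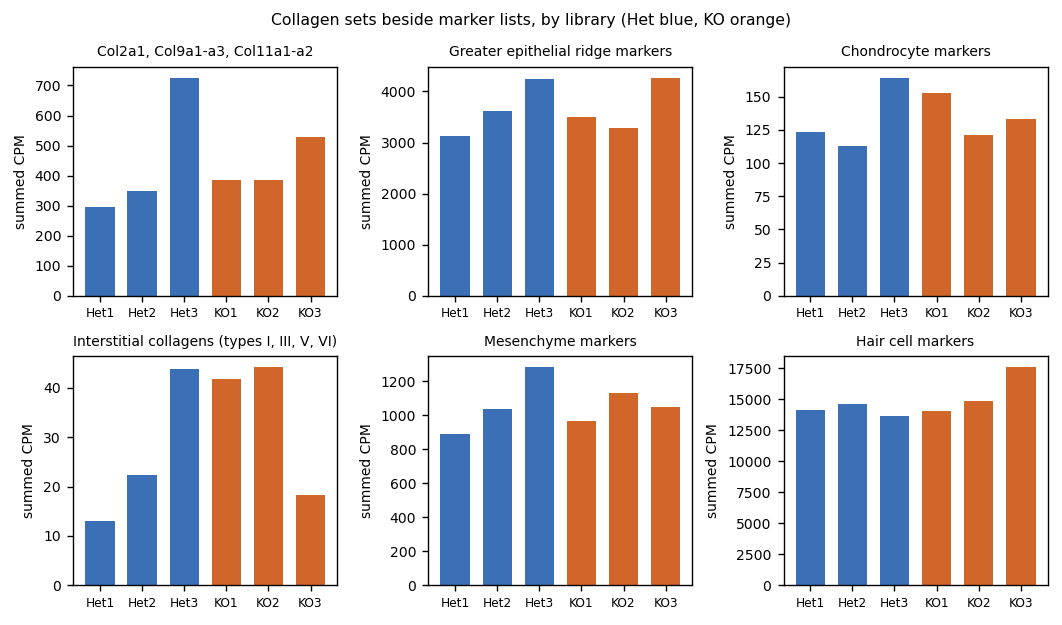
Summed CPM (y axes, from 0) in each library for 2 sets of collagens and 4 marker lists; blue bars are Insm1-Het and orange bars Insm1-KO replicates. The type II, IX and XI set and the ridge markers were highest in Het replicate 3 and KO replicate 3, while the interstitial collagens reached about 42 to 44 CPM in Het replicate 3 and in KO replicates 1 and 2.

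Interstitial collagens, the products of fibroblasts, were low. The summed level of Col1a1, Col1a2, Col3a1, Col5a1, Col5a2, Col6a1, Col6a2 and Col6a3 was 13.1, 22.3 and 43.8 CPM in Het and 41.9, 44.2 and 18.3 CPM in KO libraries. These 8 genes together held 2.83% of the members' counts. Het replicate 3 was the 1 library with a count of all 8. The gene with the most counts differed: Col5a1 in Het replicate 1, Col1a1 in Het replicate 2 and KO replicate 3, Col6a1 in Het replicate 3 and KO replicate 2, and Col3a1 in KO replicate 1.

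Col1a1, the main chain of type I collagen, was at 2.04, 17.2 and 2.29 CPM in Het and 4.805, 0.522 and 8.46 CPM in KO libraries. It was highest in Het replicate 2, where Col1a2, which encodes the other chain of the same trimer, had 1 count. Col1a2 had 77 counts in Het replicate 3, 74 in KO replicate 1 and at most 1 in any other library. Col1a1 was counted in every library, and its highest library was not that of Col1a2. Col3a1, type III collagen of soft tissue, had 46 counts in Het replicate 3, 136 in KO replicate 1, 1 in KO replicate 2 and 0 elsewhere.

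Col6a1, an alpha chain of the beaded filaments of type VI collagen, was at 4.40, 1.97 and 18.2 CPM in Het and 0, 42.0 and 3.12 CPM in KO libraries. Its neighbour Col6a2, which encodes another chain of that trimer, had 27 counts over all 6 libraries and 0 in KO replicate 2, where Col6a1 was highest. Col6a3, the third chain, had 163 counts in Het replicate 3, 28 in KO replicate 1 and 0 elsewhere. Col6a4 had 152 counts in KO replicate 1, 38 in Het replicate 1 and at most 1 elsewhere. Col6a1 and Col6a3 were thus highest in different libraries.

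Markers of mesenchyme, fixed without any collagen, were counted most widely in Het replicate 3. There 15 of the 20 had a count, against 9 and 6 in the other Het libraries and 10, 8 and 8 in KO replicates 1, 2 and 3. Dpt, Postn and Tbx18, which mark fibroblasts and periotic mesenchyme, had 276, 189 and 79 counts in Het replicate 3 and at most 4 in any other library. Other genes of the list were not confined to that library. Fbn1 was at 45.9, 37.9 and 19.8 CPM in Het and 24.5, 19.6 and 41.1 CPM in KO libraries. Pdgfrb was highest in KO replicate 3, at 56.3 CPM. Otor had 903 counts in Het replicate 3 and 446 in KO replicate 1. Twist1, Twist2, Prrx2 and Pcolce had 0 counts everywhere. The summed level of the list was 888.0, 1034 and 1284 CPM in Het and 967.8, 1128 and 1046 CPM in KO libraries. Eya4 and Pdgfra carried most of it. Eya4, also known from the otic epithelium, was at 564.3, 620.2 and 518.2 CPM in Het and 518.0, 727.4 and 682.1 CPM in KO. Pdgfra was at 225.3, 282.1 and 349.1 CPM in Het and 272.4, 334.3 and 175.3 CPM in KO. Without these genes the remaining 18 markers summed to 98.4, 132.1 and 416.3 CPM in Het and 177.3, 66.3 and 189.0 CPM in KO libraries, a trimming chosen after the values were seen. Whether mesenchyme contributed to the interstitial collagens was not tested.

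Many of the scarce members sat in 1 or 2 libraries. Of the 26 members that were counted but too low to be tested, 11, or 42.3%, were highest in KO replicate 1, where 16.4% of all 3934 such genes were highest. Among them was Col15a1, a multiplexin of vascular and muscle basement membranes, with 212 counts in KO replicate 1 and 0 in every other library. The order is by CPM, so for some of the 11 it rested on library size or few counts. Col1a2, Col16a1 and Col6a2 had 74, 14 and 12 counts there against 77, 17 and 13 in Het replicates 3, 1 and 2. Col5a2, Col6a6 and Lama3 had at most 2 counts in any library. Nid2, a nidogen, had 43 counts in Het replicate 3 and 8 in KO replicate 1 and 0 elsewhere. Het replicate 3 and KO replicate 1 together held 99.5% of the counts of Col3a1, 98.7% of those of Col1a2 and 100% of those of Col6a3 and Nid2. Over all 26, these libraries held at least 90% of the counts of 10 members and at most 10% of those of 8, among them Col25a1, Col4a4 and Col4a3, with 8 in between. The tally includes members with almost no counts, such as Col6a6 with 2 among the 10 and Col13a1, Col17a1 and Col6a5 with 1 each among the 8. These libraries were picked after the values were seen, and the share over all such genes was not measured. Of the 24 tested members, 10, or 41.7%, were highest in Het replicate 3, against 16.6% of all 11714 tested genes.

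Endothelial and pericyte markers were also counted unevenly. Of the 14, 11 were counted in KO replicate 1 and 10 each in Het replicates 1 and 3, against 3, 2 and 5 in Het replicate 2 and KO replicates 2 and 3. Their summed level was 26.1, 15.1 and 42.0 CPM in Het and 30.5, 9.26 and 50.1 CPM in KO libraries. The genes of the list differed in their highest library. Egfl7 was highest in Het replicate 3 (20.5 CPM), Abcc9 in Het replicate 1 (18.1 CPM) and Cdh5 in KO replicate 3 (14.7 CPM). Rgs5 and Pecam1 were highest in KO replicate 1, which held Col15a1, with 44 and 10 counts against at most 2 and 5 elsewhere. Their part in the type IV, type XV and nidogen counts was not tested.

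Gaps of this kind were also seen over all genes. Of the 17 members with 100 to 1000 counts over all libraries, 12, or 70.6%, had 0 counts in at least 1 library, against 34.4% of all 4202 genes in that range. Of the 11 members with 1000 to 10000 counts, 0 had such a gap, and 0.556% of all genes in that range did. Between 10 and 100 counts the shares were 92.3% of 13 members and 96.4% of all genes.

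Basement membrane genes were the next large group, and Col4a1 and Col4a2 stood out among them. They encode the chains of the common type IV collagen and lie head to head on chromosome 8, with annotated starts 21 bases apart (Col4a1 from 11198423 to 11312826 on the minus strand, Col4a2 from 11312805 to 11449287 on the plus strand). The RefSeq promoter windows on GRCm38.p6, from 250 bases before to 50 bases into each gene, cover chr8:11312777-11313076 for Col4a1 and chr8:11312555-11312854 for Col4a2, so 78 of the 300 bases of each are shared. Both are shown because the genes start from the same stretch of DNA yet differed in level. Capitals mark matches to the CCAAT box (letters CCAAT) and the GC box (letters GGGCGG), searched on both strands.
Col4a1: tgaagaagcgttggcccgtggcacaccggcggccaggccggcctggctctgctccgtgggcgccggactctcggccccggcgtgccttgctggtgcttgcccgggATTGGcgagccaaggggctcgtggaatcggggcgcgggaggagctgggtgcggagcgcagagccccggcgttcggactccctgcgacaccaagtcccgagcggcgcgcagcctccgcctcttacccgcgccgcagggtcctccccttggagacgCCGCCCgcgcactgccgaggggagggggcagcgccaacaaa
Col4a2: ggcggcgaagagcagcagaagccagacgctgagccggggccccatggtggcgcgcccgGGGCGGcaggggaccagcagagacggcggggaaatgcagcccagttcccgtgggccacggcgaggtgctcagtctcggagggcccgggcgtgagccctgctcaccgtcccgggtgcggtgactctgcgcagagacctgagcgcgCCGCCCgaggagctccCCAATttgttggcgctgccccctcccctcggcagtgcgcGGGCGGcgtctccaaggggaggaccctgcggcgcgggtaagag
The window of Col4a2 held 1 CCAAT match and 3 GC box matches, and that of Col4a1 held 1 of each, the GC box of Col4a1 being the same bases as the last one of Col4a2. Of all 32851 promoter windows of this length, 37.4% held the CCAAT letters and 35.7% the GC box letters. These are matches of letters and not evidence of a bound factor. RefSeq windows were found for 41 of the 56 members.

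Col4a2 was at 95.5, 139.8 and 141.4 CPM in Het and 78.3, 65.7 and 168.9 CPM in KO libraries. Col4a1 was at 13.5, 25.4 and 34.3 CPM in Het and 54.5, 13.8 and 161.9 CPM in KO libraries. Col4a2 was the higher in all 6 libraries, yet the gap varied. Per kb of exon, the ratio of Col4a2 to Col4a1 was 7.97, 6.21 and 4.65 in Het replicates 1, 2 and 3 and 1.62, 5.36 and 1.18 in KO replicates 1, 2 and 3. In KO replicate 3 the chains were nearly level, and KO replicate 2 lay within the range of the Het libraries. The pair was chosen for its position and the ratio was not tested between genotypes.

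Col4a1 was the 1 tested member with an unadjusted p under 0.05. Its mean was 24.4 ± 10.4 in Het and 76.7 ± 76.5 CPM in KO (SD, n = 3). This gave a log2 fold change of 1.65 (SE 0.73) and 95% limits of 0.09 and 3.21. It did not pass over all genes (adjusted p = 0.92, edgeR quasi-likelihood test, Benjamini-Hochberg), and KO replicate 2 lay within the Het range. The log2 fold change fell to 0.50 without KO replicate 3 and was 2.16 without KO replicate 2. The overlap of annotated exons with Col4a2 covers 0.295% of the length of Col4a1.

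The other type IV pairs were low. Col4a5 was at 3.42, 0 and 2.53 CPM in Het and 7.05, 9.65 and 6.68 CPM in KO libraries, while its head-to-head neighbour Col4a6, 1309 bases away at the start sites, had 0 counts everywhere. Every KO library exceeded every Het library for Col4a5, with a log2 fold change of 1.97 (SE 1.57) that did not pass (adjusted p = 0.976 by edgeR, Benjamini-Hochberg). Col4a3 and Col4a4, with starts 72 bases apart, had 31 and 69 counts over all libraries. Col4a4 had 16, 0 and 0 counts in Het and 5, 48 and 0 in KO, and only KO replicate 2 held counts of both.

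**Figure D3:**
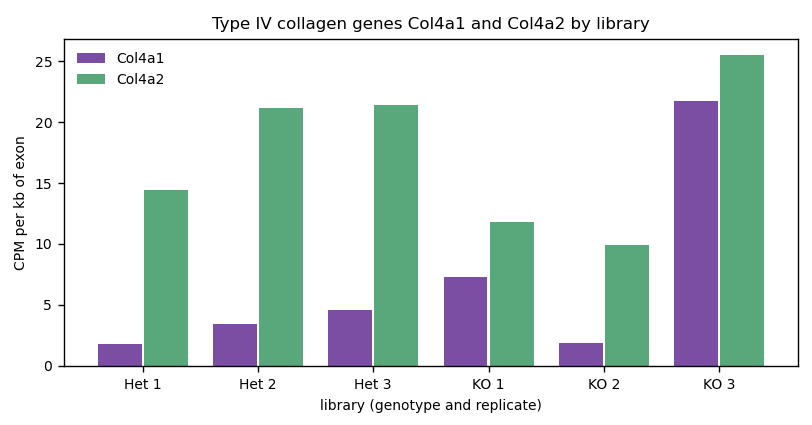
Level in CPM per kb of exon (y axis, from 0) of Col4a1 and Col4a2 in each of the 6 libraries. Col4a2 bars are higher in every library, and the bars come closest in KO replicate 3, with 21.7 for Col4a1 and 25.5 for Col4a2.

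Laminin chains were led by Lamc1 and Lama5. Lamc1, the gamma chain shared by most laminins (chromosome 1, 153218922 to 153332786), was at 104.6, 139.1 and 159.2 CPM in Het and 143.4, 113.7 and 68.7 CPM in KO libraries. Lama5, the alpha chain of many epithelial laminins (chromosome 2, 180176373 to 180225859), was at 129.97, 110.9 and 131.0 CPM in Het and 95.7, 77.7 and 85.6 CPM in KO libraries. All KO libraries lay below all Het libraries for Lama5. Its mean was 124.0 ± 11.3 in Het and 86.3 ± 8.99 CPM in KO (SD, n = 3). This gave a log2 fold change of -0.52 (SE 0.32) and 95% limits of -1.20 and 0.16. It did not pass (adjusted p = 0.938 by edgeR, Benjamini-Hochberg). The value stayed between -0.60 and -0.44 with any 1 library left out.

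Beta chains varied far more. Lamb2 was at 33.8, 14.9 and 64.5 CPM in Het and 24.9, 83.3 and 3.23 CPM in KO libraries, so KO libraries held both the highest and the lowest value. Lamb1, the other common beta chain, was at 2.12, 0 and 19.7 CPM in Het and 2.78, 0.522 and 0.445 CPM in KO libraries. Lamb2 led in every library. Lamb3, the beta chain of the skin-type laminin, had 0 counts. Summed per kb, beta chains were at 0.407, 0.145 and 0.654 of the gamma chains in Het and at 0.248, 0.950 and 0.0633 in KO replicates 1, 2 and 3. Alpha chains were closer to gamma chains, at 0.723 to 1.06 in Het and 0.529 to 1.01 in KO libraries. An assembled laminin holds the chain types in equal number, and the counts did not stand in that ratio in every library.

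**Figure D4:**
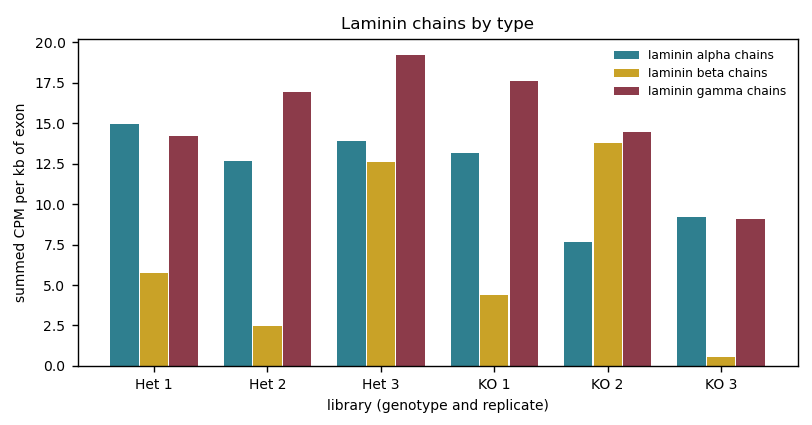
Summed CPM per kb of exon (y axis, from 0) of the alpha, beta and gamma chains of laminin in each library. Alpha and gamma bars lie between 7.66 and 19.2, while beta bars range from 0.576 in KO replicate 3 to 13.8 in KO replicate 2.

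Lama2, the alpha chain of muscle and nerve basement membranes, was at 40.1, 37.7 and 13.6 CPM in Het and 39.4, 2.09 and 6.57 CPM in KO libraries. Lama4, an alpha chain of vessel walls, was at 10.5, 6.74 and 18.8 CPM in Het and 25.9, 8.09 and 15.2 CPM in KO libraries. Neither separated the genotypes. Lama1 had 55 and Lama3 2 counts over all libraries. Lamc3 had 6 counts, all in Het replicate 2. Nid1, which links laminin to type IV collagen, had 38, 0 and 23 counts in the Het and 233, 0 and 0 in the KO libraries, so the basement membrane linker was not counted in 3 libraries that held Lamc1 at 68.7 to 139.1 CPM.

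Among the remaining collagens, Col18a1, a multiplexin of basement membranes that yields endostatin, was at 43.7, 10.7 and 56.04 CPM in Het and 52.3, 9.65 and 27.9 CPM in KO libraries. Replicate 2 of each genotype was low. Col7a1, which forms anchoring fibrils under epithelia, was at 14.5, 29.5 and 54.6 CPM in Het and 37.8, 25.8 and 9.46 CPM in KO libraries. Col27a1, a fibrillar collagen of cartilage, was at 0, 0.281 and 4.74 CPM in Het and 0, 17.5 and 19.8 CPM in KO libraries, and the groups overlapped through KO replicate 1. Col20a1, a fibril-associated collagen, had 32, 35 and 27 counts in Het and 0, 10 and 0 in KO libraries. All Het libraries of Col20a1 lay above all KO libraries, with a log2 fold change of -2.61 (SE 2.07) that did not pass (adjusted p = 0.973 by edgeR, Benjamini-Hochberg). Without KO replicate 2, the 1 KO library with counts, the fitted value was -7.85, which is set against libraries at 0 and gives no size of the difference. Transmembrane collagens were scarce. Col25a1 had 65, 0 and 1 counts in Het and 0, 0 and 4 in KO, Col13a1 and Col17a1 had 1 count each, and Col23a1 had 0.

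Of the 56 members, 24 passed the filter on low counts and 0 of them met the adjusted threshold of 0.05 in edgeR's quasi-likelihood test, where 0% of the 11714 tested genes were called; 626 had an unadjusted p under 0.05, and DESeq2 called 26 genes and limma-voom 0. Their adjusted p-values ran from 0.92 to 0.998. DESeq2 and limma-voom also called 0 members. At an unadjusted p under 0.05, 1 member was higher in KO libraries, Col4a1, beside 3.19% of all tested genes, and 0 members were lower, beside 2.15%. Libraries did not overlap for 1 member higher in KO, Col4a5, beside 5.08% of all tested genes, and for 2 members lower in KO, Lama5 and Col20a1, beside 6.1%.

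The median log2 fold change of the 24 tested members was -0.28, and that of all tested genes was 0.02. Below 0 lay 15 of the 24, beside 49.1% of all genes, and above 0 lay 9, beside 50.9%. This direction rested on Het replicate 3. Without it the median of the same members was 0.15, and 9 lay below 0. Het replicate 3 was also the library with the most member counts and the most mesenchyme markers with a count, and their part in the direction was not tested. The members' intervals were wide: among those at 10 CPM or more in every library the narrowest was that of Lama5, and for Nid1 the interval ran from -2.35 to 7.01.

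**Figure D5:**
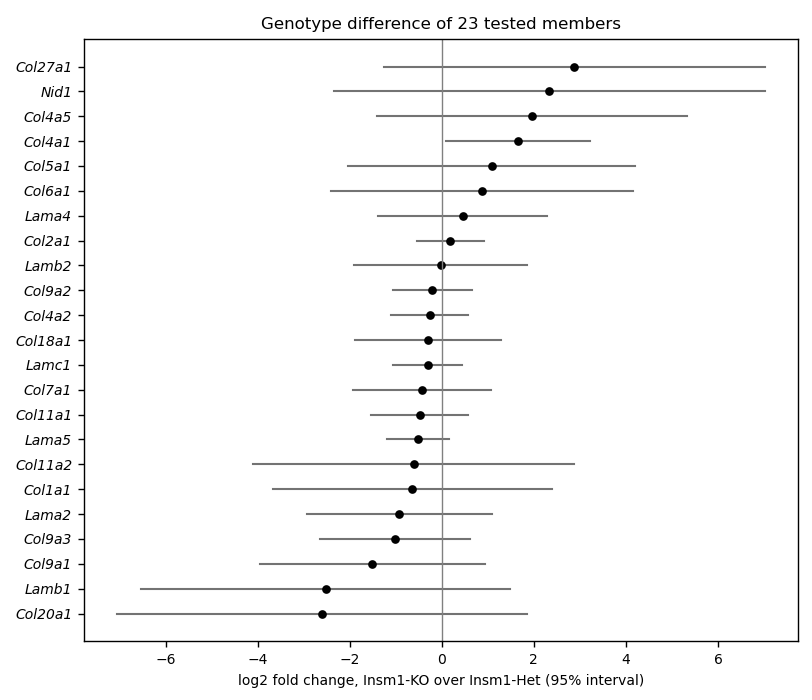
Log2 fold change of Insm1-KO over Insm1-Het (x axis) with its 95% interval for 23 of the 24 tested members, ordered by value. The interval of Col4a1, from 0.09 to 3.21, is the 1 that leaves out 0, and it is not adjusted for the number of genes tested.

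Genes that make, hold or cut these proteins were taken as fixed lists. Among enzymes of collagen folding and processing, 20 of the 29 in the files were counted in every library. P4hb, the disulfide isomerase subunit of prolyl hydroxylase, was at 251.0 ± 59.8 in Het and 266.7 ± 59.1 CPM in KO (SD, n = 3). Mia3, which exports procollagen from the endoplasmic reticulum, was at 217.9 ± 33.1 and 225.2 ± 57.0 CPM, and Plod2, a lysyl hydroxylase with 6.42% of its exon length shared with Gm38391, at 151.0 ± 54.8 and 155.6 ± 40.4 CPM. P4hb and Mia3 also serve proteins other than collagen. Serpinh1, the collagen chaperone, varied from 11.6 CPM in Het replicate 1 to 110.6 CPM in Het replicate 3. Of the 22 tested enzymes 0 had an unadjusted p under 0.05. Serpinh1 was chosen after its values were seen.

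Receptors were led by laminin receptors. Dag1, the dystroglycan, was at 548.4 ± 76.7 in Het and 608.3 ± 118.2 CPM in KO libraries, Itga6, a laminin-binding integrin alpha chain, at 170.9 ± 18.7 and 196.5 ± 62.5 CPM, and Itgb1, its beta partner, at 93.5 ± 13.5 and 86.0 ± 8.23 CPM (SD, n = 3). All of them were counted in every library. Ddr2, a receptor of fibrillar collagens, was at 17.3 CPM in Het replicate 3, 14.9 CPM in KO replicate 1 and at most 0.163 CPM elsewhere, the same libraries as Col3a1 and Col1a2. Of the 12 tested receptors 0 had an unadjusted p under 0.05. Ddr2 was chosen after its values were seen.

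Among other basement membrane genes, Sparc, a collagen-binding protein, was at 662.2 ± 268.3 in Het and 584.7 ± 125.2 CPM in KO, with its highest value of 967.3 CPM in Het replicate 3. Agrn, agrin, was at 206.1 ± 56.3 and 181.6 ± 14.2 CPM, and Frem2, a protein of epithelial basement membranes, at 138.3 ± 49.4 and 212.5 ± 35.1 CPM (SD, n = 3). Of the 11 tested, 2 had an unadjusted p under 0.05, both lower in KO, beside 2.15% of all tested genes. Of these, 0 passed over all genes (adjusted p = 0.92 for both by edgeR, Benjamini-Hochberg). Fras1, a partner of Frem2, was at 69.3, 84.8 and 89.8 CPM in Het and 28.7, 48.9 and 48.9 CPM in KO libraries, a log2 fold change of -0.95 (SE 0.43). Npnt, the integrin ligand nephronectin, was at 37.7, 15.3 and 1.82 CPM in Het and 0.427, 1.70 and 3.45 CPM in KO libraries, a log2 fold change of -3.29 (SE 1.29). KO libraries were below all Het libraries for Fras1, as for 6.1% of all tested genes, and overlapped them for Npnt. Fras1 was not alone among the partners of all lists. KO libraries also lay below all Het libraries for Smoc2 and Lepre1. They lay above them for Mmp15 and Adamts14, as for 5.08% of all tested genes.

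Proteases and their inhibitors included 7 tested genes, of which 0 had an unadjusted p under 0.05. Timp2, an inhibitor of matrix proteases, was at 103.7 ± 13.2 in Het and 114.4 ± 20.9 CPM in KO libraries, Mmp16, a membrane-bound protease, at 99.0 ± 28.0 and 61.7 ± 26.3 CPM, and Mmp14, another, at 51.7 ± 29.9 and 40.6 ± 12.9 CPM (SD, n = 3). Mmp14 was highest in Het replicate 3, at 85.7 CPM.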

How the data were processed

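RNA of sorted outer hair cells was measured in 6 libraries. The authors deposited raw read counts per gene symbol, not normalized, 1 file per library with 23337 symbols. The submitters' processing notes name the tools Trimmomatic, HTSeq and STAR and the build GRCm38 (mm10). Their versions, the annotation and the strand setting were not given in the sources used here. The labels' protocols describe removal of ribosomal RNA, random priming and amplification, so reads are not independent molecules and limits from a count of 0 (3 counts) cover counting error only.

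Genes were filtered by filterByExpr (minimum count 10, minimum total 15), which kept 11714 and removed 0.274% of counts. Genotypes were compared over all kept genes with edgeR 4.0.16 (quasi-likelihood F test, TMM, genotype only, Benjamini-Hochberg, threshold 0.05) in R 4.3.3. The SE is the log2 fold change divided by the square root of F. CPM uses kept totals times TMM factors. Exon lengths and positions came from GENCODE M21 on GRCm38, found for all 56 members; the exon union was used. Alternatives included DESeq2 1.42.0 and limma-voom 3.58.1. The fits were also run on simulated data with large planted changes. That run cannot tell whether small changes would be found, and its outcome is not given here.

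The members, classes, partner and marker lists and tests were chosen with earlier results of these data known. Named were the up to 4 most abundant members of each class with at least 1 CPM on average and members with an unadjusted p under 0.05. Also named were members with at least 1 CPM on average whose genotypes did not overlap, and members over 100 counts in 1 library and 0 in another. Of each partner list, the 3 most abundant and those with an unadjusted p under 0.05 were named. Of the ridge, mesenchyme, chondrocyte and endothelial marker lists, the 2 most abundant were named. The other marker lists were not shown by that rule. The values of 1 tested member are not reported here; it stays in the fit, the counts and the sums. Tecta, Epyc and other genes outside this rule were chosen after their values were seen. Of the marker lists, 0 genes passed the adjusted threshold. At an unadjusted p under 0.05 by edgeR, 4 of 19 tested hair cell and 4 of 14 supporting cell markers were higher in KO. So were 1 of 6 glial and 1 of 7 neuron markers, beside 3.19% of all tested genes. Of the 15 tested ridge markers 1 was lower in KO, beside 2.15% of all tested genes. The mesenchyme, chondrocyte, endothelial and immune lists had 0, and 0 erythroid markers were tested.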

Additional observations from a re-analysis of the deposited data

How the results depend on the processing

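Members past the adjusted threshold stayed at 0, and partners at 0, under all 10 alternatives and with any 1 library left out. Over all genes the count of 0 became 26 with DESeq2, 67 with no filter, and 1 with the replicate block and with the newer quasi-likelihood form. Members higher at an unadjusted p under 0.05 (1, Col4a1) became 0 with limma-voom and with the replicate block, 2 with no filter (with Col15a1) and 2 with the newer form (with Col27a1), and 0 to 2 with 1 library left out, 0 without Het replicate 1, Het replicate 2 or KO replicate 3. Members lower went from 0 to 1 when each KO library was left out in turn (Lama2 without KO replicate 1, Col20a1 without KO replicate 2, Col4a2 without KO replicate 3) and stayed at 0 without a Het library. Partners at that level (2) became 1 with the filter at 5 CPM in 3 libraries and 1 with the replicate block, and 0 to 5 with 1 library left out, 0 without Het replicate 1 or KO replicate 1 and 5 without KO replicate 3. The median of the members ran from -0.52 without KO replicate 1 to 0.15 without Het replicate 3.

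With the replicate block Col6a1 went from 0.87 to -2.00, Col1a1 from -0.64 to 0.0539 and Nid1 from 2.33 to -0.55; with limma-voom Col6a1 was -1.77 and Nid1 -0.52. With 1 library left out, log2 fold changes that changed sign ran from -0.11 to 0.66 for Col2a1, -0.44 to 0.0042 for Col9a2, -0.81 to 0.24 for Col11a1, -1.42 to 0.61 for Lamb2, -0.97 to 0.14 for Col18a1, -0.90 to 0.16 for Col7a1, -0.0441 to 0.94 for Lama4, -1.94 to 0.15 for Col9a1, -2.37 to 2.23 for Col6a1, -1.41 to 1.08 for Col1a1, -3.88 to 0.23 for Lamb1 and -7.11 to 3.15 for Nid1; the cause was not tested. Col20a1 kept its sign, at -4.65 with the replicate block and between -7.85 without KO replicate 2 and -2.02 without KO replicate 3. Col27a1 reached 6.39 without Het replicate 3 and Lama2 -2.81 without KO replicate 1. Deviations of same-numbered libraries from their genotype means correlated at 0.0101, 0.0073 and 0.0144 across genes, and those of other pairs at -0.0274 to 0.0227. This shows no shift shared over all genes by replicate number. It cannot tell whether same-numbered libraries were prepared together. Band counts stayed within 1.5 times of their values. For a member with 0 counts in a library, depth leaves room for a level of up to 0.237 to 0.391 CPM there.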
